A study of Mus musculus with 2 samples.

Results

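Vascular smooth muscle-like mural cells of the dorsal root ganglion (DRG) were examined in 2 samples of single-cell RNA sequencing, replicates 1 and 2. They were the barcodes that carried the mural genes *Rgs5* and *Notch3* together with *Myh11*, the heavy chain of smooth muscle myosin, and 450 of 16882 cells met this rule, 244 of 8366 in replicate 1 and 206 of 8516 in replicate 2. The cells were selected on measured UMIs, the molecules counted by their unique molecular identifiers. A barcode needed over 300 genes, at least 1000 UMIs, at most 22% mitochondrial UMIs, at least 5 UMIs of *Rgs5* and *Notch3* per 10000 and at least 2 in all, and at least 3 UMIs of *Myh11*. It also needed fewer than 30 UMIs of the glial gene *Fabp7* per 10000 and at most 2 UMIs each of the Schwann cell genes *Ncmap* and *Scn7a*, the fibroblast gene *Pdgfra*, the macrophage gene *C1qa* and the endothelial gene *Flt1*. Both samples were L4 and L5 DRGs of uninjured C57BL/6 mice, female and 3 months old, so they form 1 group and the comparisons below are between cell types. The number of animals in a replicate is not given in the sources used here, and the p-values below measure only the spread between these 2 samples.

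Smooth muscle cells wrap arteries, arterioles and venules and set vessel diameter by contraction. Calcium that enters through voltage-gated channels or leaves the sarcoplasmic reticulum activates myosin light chain kinase, and phosphorylated myosin then pulls on smooth muscle actin filaments. Pericytes, the mural cells of capillaries, share *Rgs5*, *Notch3* and *Pdgfrb* with them but hold little of the contractile apparatus.

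The members made up 2.92% of the cells of replicate 1 (exact 95% interval 2.57 to 3.30) and 2.42% of those of replicate 2 (2.10 to 2.77). Among mural cells as a whole, the share was 72.2% (67.1 to 76.9) and 76.0% (70.5 to 81.0). The remaining mural cells met the same rule with at most 2 UMIs of *Myh11*, and are called pericyte-like here (94 and 65 cells). Fibroblast-like cells (138 and 199, at least 3 UMIs of *Pdgfra*) and endothelial-like cells (168 and 183, at least 3 UMIs and 5 per 10000 of *Flt1*) served as further comparisons. A member held a median of 8719 UMIs in replicate 1 and 9426 in replicate 2, against 6477.5 and 6508 in a pericyte-like cell. Over all cells 39 barcodes occurred in both samples, and none of them was a member's.

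The label was checked mainly on genes outside the rule. The check was not independent of it, because *Acta2* and *Tagln* varied with *Myh11* over members, as given below. *Acta2*, smooth muscle alpha-actin, stood at 5304 and 5628 CPM (UMIs of the gene among all UMIs of a profile, scaled to 1000000) in replicates 1 and 2, and *Tagln*, the actin-binding protein transgelin, at 5101 and 5113 CPM. All 11 smooth muscle markers, *Myh11* and *Notch3* of the rule included, were detected in both replicates. *Acta2* lies at chr19:34241090-34255590 and *Tagln* at chr9:45929619-45936058, both on the minus strand (GRCm38). The 10 pericyte markers, *Rgs5* of the rule included, were all detected too and summed to 11461 and 12622 CPM, against 13142 and 11723 CPM in pericyte-like cells. *Rgs5* alone gave 7049 and 8155 CPM in the members and 7076 and 6000 CPM in pericyte-like cells. These sums thus rest largely on a gene of the rule, and pericyte markers outside the rule are compared below. Of the 10 skeletal and cardiac muscle markers, 2 were detected in each replicate at a summed 2.66 and 0.978 CPM, and skeletal *Acta1*, *Myh1*, *Myh4* and *Ckm* were at 0 in both. The endothelial marker *Cdh5* was at 0 in both replicates, while the 10 endothelial markers summed to 331 and 384 CPM, of which *Esam*, a junction protein also made by mural cells, gave 253 and 298. The 10 fibroblast markers summed to 762 and 765 CPM with *Gsn* as the most abundant, 9 of 10 were detected, and *Pdgfra*, which the rule limited, was at 0. The 10 satellite glia markers summed to 3065 and 2586 CPM, mostly *Apoe* at 2343 and 1898, and the 10 Schwann cell markers to 384 and 513 CPM. RNA of empty droplets, in which satellite glia markers held 54447 and 52827 CPM, was estimated at 5.75% and 7.44% of the members' UMIs and at 6.22% and 10.95% of those of pericyte-like cells from 6 glial genes. Pericyte-like cells also held more of the Schwann cell markers, 601 and 863 CPM, and of the endothelial markers, 564 and 439 CPM, led by *Emcn*. With *Ncmap*, *Scn7a*, *Pdgfra*, *C1qa* and *Flt1* held at 0 UMIs in place of at most 2, 514 genes were called higher and 456 lower, with 373 of the 520 lower genes lower again. The leukocyte markers summed to 19.0 and 31.3 CPM and the neuronal markers to 52.2 and 108 CPM. With empty droplet RNA subtracted from each profile, 550 genes were called higher and 465 lower than in pericyte-like cells, against 593 and 520 without it.

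*Myh11* itself, which chose the cells, is given as a description. Its level was 2199 and 2155 CPM in the members and 172 and 131 CPM in pericyte-like cells. The median member held 13.5 UMIs of it in replicate 1 and 14 in replicate 2, the highest 152 and 118, and 60 and 50 members held only 3 to 5. Just inside the threshold, the 22 and 20 cells with 3 UMIs had *Acta2* at 446 and 1009 CPM and the pericyte gene *Kcnj8* at 252 and 306 CPM. Just outside it, the 37 and 19 cells with 2 UMIs had *Acta2* at 581 and 275 CPM and *Kcnj8* at 381 and 383 CPM. The *Acta2* values on the 2 sides of the threshold overlapped between replicates, and the threshold was set in the same cells whose other genes are compared below. *Notch3*, the receptor that gave the mural gate, stood at 1218 and 1344 CPM in members and at 1210.3 and 1149.8 CPM in pericyte-like cells. The level of *Rgs5*, a regulator of G-protein signalling, was 7049 and 8155 CPM against 7076 and 6000.3 CPM.

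Genes were compared with pericyte-like cells after UMIs had been summed per sample and type, in a fit of 4 types. Of 12872 genes tested, 593 were higher in smooth muscle-like cells, 4.61% of all, and 520 were lower, 4.04% of all, at an adjusted p under 0.05 (edgeR's quasi-likelihood test, Benjamini-Hochberg). The median log2 fold change over all genes was 0.01. Each of the 593 genes was higher in both samples, and 511 of the 520 were lower in both. These genes were called on the same samples, so this is no separate support. The share of all genes with 1 direction in both samples was not counted. Of the 593, 76 passed the filter on low counts only through the smooth muscle-like profiles, which largely set their direction, as did 391 of the 12872 genes tested. Fewer genes were called with a sample left out. Each mural type then kept 1 profile, and the spread came from fibroblast-like and endothelial-like cells alone. Calls with a sample left out, here and below, thus do not measure the spread between mural samples.

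**Figure D1:**
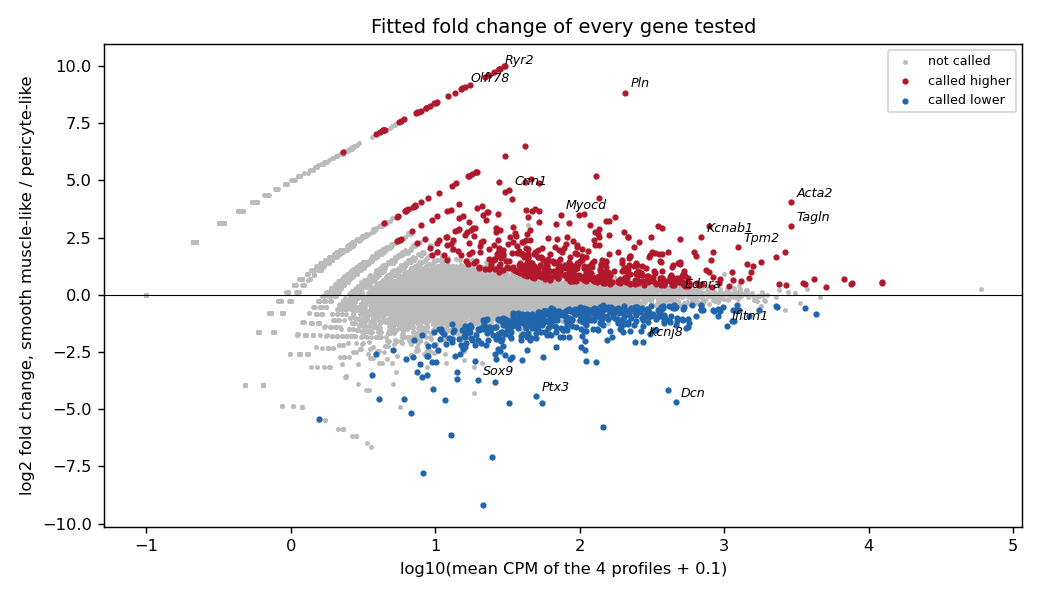
Log2 fold change of each of the 12872 genes tested (y axis) against the mean level of the 4 mural profiles (x axis, log10 of CPM + 0.1). Red points are the 593 genes called higher and blue points the 520 called lower in smooth muscle-like cells. The upper oblique band holds genes with 0 UMIs in both pericyte-like profiles, whose fitted values depend on the prior count.

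Most genes of the contractile apparatus were called higher. All 32 of its genes outside the rule were tested, and 24 were called higher (75%, against 4.61% of all genes) and 0 lower. The median log2 fold change was 1.40, against 0.01 over all genes. Of the 24, *Ldb3*, *Cnn1* and *Actg2* passed the filter on low counts only through the smooth muscle-like profiles. *Acta2* was at 5304 and 5628 CPM in the members and at 405 and 302 CPM in pericyte-like cells, a log2 fold change of 4.03 ± 0.15 (SE, adjusted p = 7.2e-08, edgeR). *Tagln*, at 5101 and 5113 CPM against 680.1 and 684, differed by 3.00 ± 0.36 on the log2 scale (adjusted p = 0.000252). In neither gene did the groups overlap, though the share of all genes without overlap was not counted. *Tpm2*, a tropomyosin that lies along the actin filament, reached 2085 and 1915 CPM against 512 and 496. *Myl9*, the regulatory light chain of smooth muscle myosin, reached 2649 and 2496 CPM against 1107 and 907. Its activating kinase *Mylk* was at 927 and 1001 CPM against 322 and 310.4, and *Lmod1*, which nucleates actin filaments, at 363 and 368 CPM against 66.5 and 67.8. All 4 were called higher. *Cnn1*, calponin, a marker of differentiated smooth muscle, was at 63.3 and 59.7 CPM but rested on 3 UMIs in pericyte-like cells (0 and 6.56 CPM), a ratio of 22.7 with a counting interval of 7.67 to 111. *Ldb3*, a Z-disc adaptor, was at 44.3 and 43.5 CPM and had no UMI in pericyte-like cells, so it was at least 16.2-fold higher when 3 UMIs over both profiles are taken as the floor.

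Among the 8 genes of the list that were not called was *Des*, the intermediate filament desmin, at 419 and 429 CPM in members and 469.9 and 409 CPM in pericyte-like cells (log2 difference 0.04 ± 0.12, adjusted p = 0.924, edgeR). *Actb*, cytoplasmic beta-actin, was at 5657 and 5382 CPM against 4721 and 4468, a log2 difference of 0.36 ± 0.09 (adjusted p = 0.0333) that lost its call under 7 of 15 alternatives. Of 14 tested actin, myosin and tropomyosin paralogs, 7 were called higher (50%, against 4.61% of all genes), *Actg2* and *Myl6* among them. *Myl12a*, the light chain of non-muscle myosin, was called lower (235 and 266 CPM against 337 and 409), a call lost under 7 of 15 alternatives. Near-identical actins can share reads, which leaves the split between *Acta2* and *Actg2* uncertain.

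**Figure D2:**
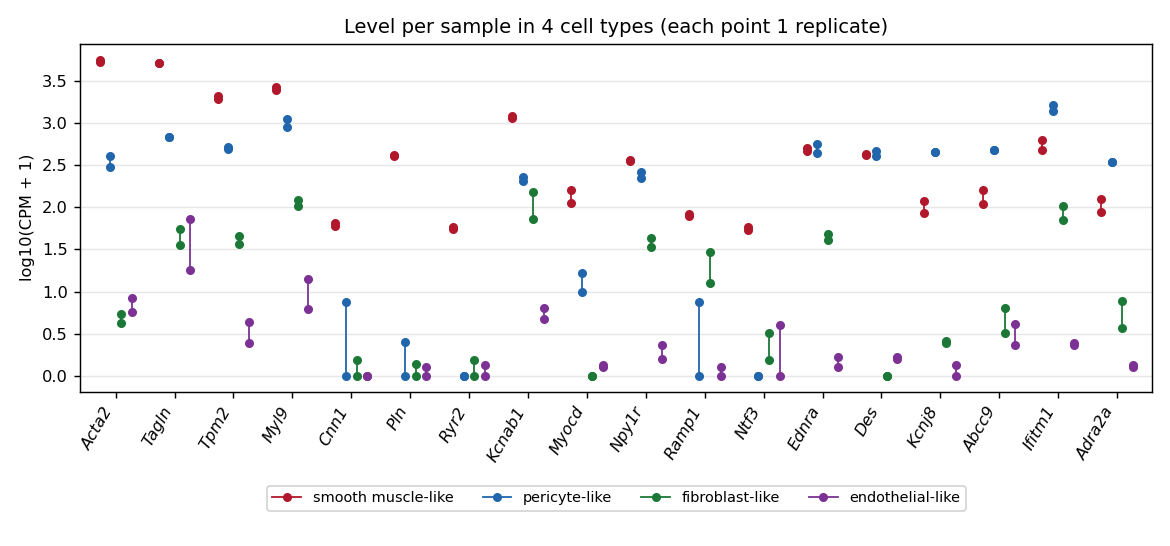
Level of 18 genes in each replicate (points, joined within a type) of 4 cell types, as log10 of CPM + 1. Contractile and calcium-handling genes from *Acta2* to *Ryr2* lie highest in smooth muscle-like cells (red), *Ednra* and *Des* lie together in both mural types, and *Kcnj8*, *Abcc9*, *Ifitm1* and *Adra2a* lie higher in pericyte-like cells (blue).

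Serum response factor binds the CArG box, and with its partner myocardin it drives many contractile genes. RefSeq promoter windows of 300 bases (250 before and 50 after the transcript start, GRCm38.p6) were searched for this box, which reads alike on both strands. Windows were found for 29 of 33 genes (the contractile list with *Myh11*), and *Tagln*, *Actg2* and *Myh11* were among those without one. Of the 29 genes, 5 held the box (17.2%), against 1.57% of 9980 tested genes with a window. *Ldb3* and *Myl9* were called higher than in pericyte-like cells, and *Cnn2*, *Fhl1* and *Vcl* were not called. Of the genes called higher than in pericyte-like cells, 443 had a window and 13 held the box (2.93%). The windows of *Myl9* (chr2:156775214-156775513, plus strand) and *Ldb3* (chr14:34588632-34588931, minus strand) are shown for that reason, with the box in capitals. It starts 161 bases before the transcript start in *Myl9* and 35 before it in *Ldb3*, for which the nearer of 2 listed starts is shown. A match is a description of the sequence only.
Myl9: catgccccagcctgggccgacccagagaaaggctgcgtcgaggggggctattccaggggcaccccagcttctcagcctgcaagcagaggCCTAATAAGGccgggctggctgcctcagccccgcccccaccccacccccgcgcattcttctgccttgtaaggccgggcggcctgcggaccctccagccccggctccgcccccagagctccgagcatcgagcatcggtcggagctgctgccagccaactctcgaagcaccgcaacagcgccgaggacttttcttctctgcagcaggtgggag
Ldb3: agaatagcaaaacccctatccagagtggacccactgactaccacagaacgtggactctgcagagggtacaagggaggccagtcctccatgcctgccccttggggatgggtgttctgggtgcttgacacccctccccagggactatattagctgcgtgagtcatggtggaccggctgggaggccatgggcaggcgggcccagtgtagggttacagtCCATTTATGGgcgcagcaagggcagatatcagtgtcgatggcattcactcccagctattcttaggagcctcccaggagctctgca

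Channels and pumps were called in both directions. Of 52 tested channels and pumps of vascular tone, 18 were called higher (34.6%, against 4.61% of all genes) and 7 lower (13.5%, against 4.04%). The median log2 fold change was 0.40, or 0.33 with genes at 0 in pericyte-like cells set at their bound. Of the 18, 7 passed the filter on low counts only through the smooth muscle-like profiles, *Ryr2*, *Pln*, *Abcc8*, *Kcnmb1* and *Kcna5* among them, so their direction was largely set by it. *Pln*, phospholamban, restrains the calcium pump of the sarcoplasmic reticulum. It was at 409 and 416 CPM in the members and at 1.55 and 0 CPM in pericyte-like cells, where it rested on 1 UMI (ratio 455, counting interval 81.6 to 17998). The pump itself, *Atp2a2*, was at 546 and 678 CPM against 270.5 and 264. *Ryr2*, a calcium release channel, was at 54.0 and 57.2 CPM with no UMI in pericyte-like cells (at least 20.4-fold higher). *Casq2*, which stores calcium in the reticulum, stood at 186 and 206 CPM against 10.8 and 28.4, and the exchanger *Slc8a1* at 387 and 463 CPM against 91.2 and 89.6. All 5 were called, though for *Pln* and *Ryr2* the filter largely set the direction.

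After each cell had been thinned to 1000 UMIs, *Pln* was found in 23.8% of members in both replicates (exact 95% intervals 18.6 to 29.6 and 18.1 to 30.2), and unthinned in 42.6% and 43.7%. In satellite glia, which should lack it and had median depths of 14694 and 15262 UMIs, the thinned share was 0.428% and 0.527%. Of the genes that let potassium out, *Kcnab1*, a subunit of voltage-gated channels, reached 1143 and 1205 CPM against 230.3 and 203, and *Kcna5* 62.4 and 54.3 CPM against 3.09 and 2.19 (3 UMIs, ratio 21.6, interval 7.29 to 105). *Kcnmb1*, a subunit that makes large-conductance channels more sensitive to calcium, was at 29.7 and 36.7 CPM against 1 UMI in pericyte-like cells (ratio 36.4, interval 6.43 to 1449). Subunits of the ATP-sensitive channel went opposite ways. Of its sulfonylurea receptor subunits, *Abcc8* was at 31.9 and 43.0 CPM against 1.55 and 0 CPM (1 UMI, ratio 41.1, interval 7.26 to 1631). The other, *Abcc9*, was at 158 and 109 CPM against 471 and 479. The pore subunit *Kcnj8* was at 117 and 85.6 CPM against 451 and 450.3. *Cacna1c*, the L-type calcium channel, was at 1315 and 1524 CPM against 1233 and 1001 and did not pass the test (log2 difference 0.44 ± 0.16, adjusted p = 0.143).

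Endothelin receptors are the subject of the study. *Ednra*, the receptor that constricts vessels, was at 511 and 458 CPM in smooth muscle-like cells and at 561 and 437 CPM in pericyte-like cells. The log2 difference of 0.04 ± 0.14 did not pass the test (adjusted p = 0.925, edgeR), and the groups overlapped. Its level was at most 46.7 CPM in fibroblast-like cells, 12.1 CPM in satellite glia and 0.667 CPM in endothelial-like cells. *Ednra* was higher in members than in fibroblast-like cells by 3.48 on the log2 scale (adjusted p = 4.62e-09, edgeR). Against endothelial-like cells, where it rested on 3 UMIs, the ratio was 1053 with a counting interval of 360.0 to 5112. *Ednrb*, the other receptor, stood at 105 and 76.8 CPM in members, 142 and 127 in pericyte-like cells, 1035 and 1059 in satellite glia and 587 and 544 in empty droplets. The ligand gene *Edn1* was at 0 in both mural types and at 112 and 139 CPM in endothelial-like cells. *Edn3* was at 9.29 and 10.3 CPM in members, 1.55 and 8.74 in pericyte-like cells and 27.6 and 27.0 in fibroblast-like cells. Its difference between the mural types did not pass the test (log2 1.18 ± 0.60, adjusted p = 0.303). It passed among cells with at most 10% mitochondrial UMIs (2.59, adjusted p = 0.033) and among mural cells with at most 2 UMIs of *Dcn* (2.41, adjusted p = 0.0396), the second a setting chosen after the data were seen.

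Of 47 tested vasoactive receptors, 6 were called higher (12.8%, against 4.61% of all genes) and 2 lower (4.26%, near the 4.04% of all genes), with a median log2 fold change of -0.02. Of the 6, *Drd1* and *Htr1b* passed the filter on low counts only through the smooth muscle-like profiles. Far fewer receptors were called higher with either sample left out. *Ramp1*, which with *Calcrl* forms the receptor for the sensory neuropeptide CGRP, was at 77.0 and 82.6 CPM against 0 and 6.56 CPM, resting on 3 UMIs (ratio 29.3, interval 9.95 to 143). The serotonin receptor *Htr1b* was at 46.9 and 44.5 CPM against 10.8 and 2.19, and the thromboxane receptor *Tbxa2r* at 31.9 and 24.0 CPM against 9.27 and 6.56. *Npy1r*, the receptor for the sympathetic transmitter neuropeptide Y, reached 356 and 364 CPM against 219 and 260.1 (log2 0.69 ± 0.14, adjusted p = 0.00792, edgeR). In these 4 genes the groups did not overlap, but they were picked among called genes. The share of all genes without overlap was not counted, so this adds no separate support. The angiotensin receptor *Agtr1a* was lower, at 139 and 112 CPM against 368 and 243, and so was the adrenergic receptor *Adra2a*, at 123 and 88.0 CPM against 340.1 and 343. The calls of *Agtr1a* and *Adra2a* held under all 15 alternatives, while *Npy1r* lost its call under 4, *Tbxa2r* under 5 and *Ramp1* under 1.

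Among transcription factors of mural cells, 6 of 30 tested were called higher (20%, against 4.61% of all genes) and 4 lower (13.3%, against 4.04%). The median log2 fold change was -0.03, and fewer were called each way with 1 sample left out. *Myocd* passed the filter on low counts only through the smooth muscle-like profiles, which largely set its direction. *Myocd*, myocardin, was at 113 and 158 CPM against 15.5 and 8.74, a log2 difference of 3.50 ± 0.32. *Mef2c*, a factor of muscle development, was at 971 and 1098 CPM against 679 and 609.9. *Nr2f2*, known from venous endothelium, was lower at 981 and 1018 CPM against 1493 and 1414, as were *Ebf1* at 1835 and 1772 CPM against 2915 and 2686 and the mesenchymal factor *Prrx1* at 265 and 233 CPM against 461 and 459. *Nr2f2* lost its call under 5 of 15 alternatives and *Ebf1* and *Prrx1* under 3 each. *Tbx3* and *Klf4* were called higher but lost the call under 8 and 9 of 15 alternatives.

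The Notch pathway specifies mural cells, and of its 20 tested genes 3 were called higher and 3 lower (median -0.08), 15.0% each way against 4.61% and 4.04% of all genes, and 1 each way with either sample left out. *Nrip2*, a nuclear receptor-interacting protein, stood at 561 and 568 CPM against 207 and 138, and the target *Nrarp* at 219 and 235 CPM against 122 and 111. *Heyl*, another target, was lower at 169 and 129 CPM against 277 and 293, and *Dtx4*, a regulator of Notch, differed by -1.39 ± 0.27 on the log2 scale (adjusted p = 0.00654, edgeR). *Hey2* was at 82.3 and 89.0 CPM against 49.5 and 61.2 and lost its call under 11 of 15 alternatives.

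Of 26 tested pericyte markers, 11 were called lower (42.3%, against 4.04% of all genes) and 1 higher (3.85%, near the 4.61% of all genes). The median log2 fold change was -0.30. *Kcnj8* differed by -2.05 ± 0.16 on the log2 scale (adjusted p = 1.27e-05, edgeR) and *Abcc9* by -1.73 ± 0.19 (adjusted p = 0.000156). *Vtn*, the adhesion protein vitronectin, was at 668 and 686 CPM against 1598 and 1602. *Ifitm1*, an interferon-induced membrane protein, was at 632 and 481 CPM against 1638 and 1401. *Ndufa4l2*, a mitochondrial protein, stood at 1013 and 986 CPM against 959.9 and 813 (log2 0.26 ± 0.12, adjusted p = 0.246). *Cspg4*, the NG2 proteoglycan, was called higher, at 179 and 181 CPM against 117 and 111, and lost the call under 5 of 15 alternatives. When pericyte-like cells were limited to those with 0 UMIs of *Myh11*, 6 of the markers were called lower in place of 11.

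**Figure D3:**
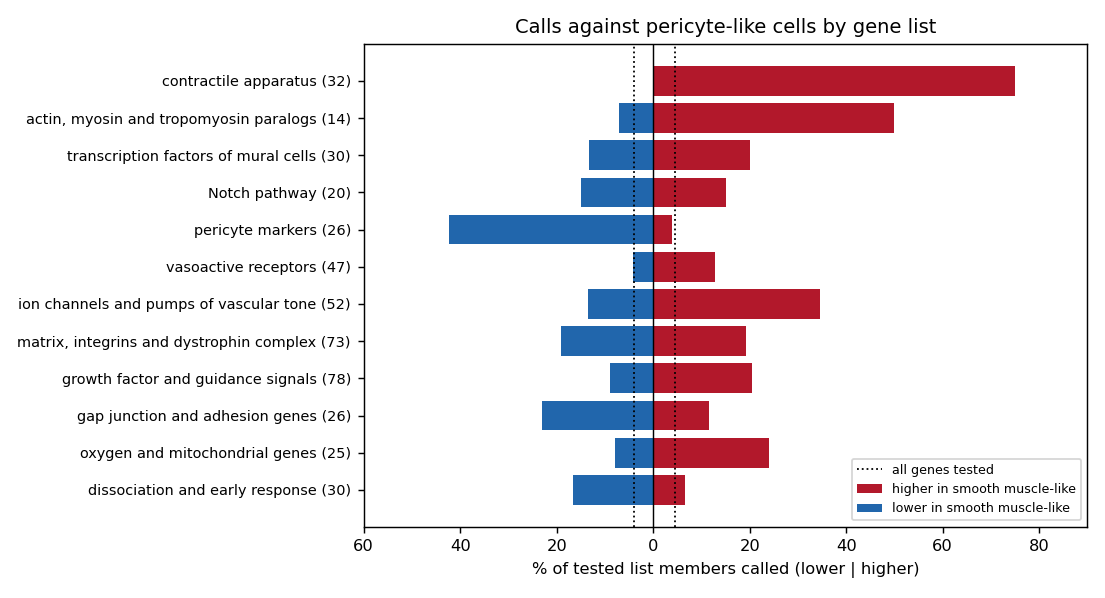
Share of tested genes (number in parentheses) in each of 12 gene lists that were called higher (red, to the right) or lower (blue, to the left) than in pericyte-like cells, with the background of all genes tested as dotted lines (4.61% and 4.04%). The contractile list reached 24 of 32 on the higher side and the pericyte markers 11 of 26 on the lower side.

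Some genes of signals to neurons and vessel walls had UMIs in smooth muscle-like cells and none in pericyte-like cells. Of 78 tested growth factor and guidance genes, 16 were called higher (20.5%, against 4.61% of all genes) and 7 lower (8.97%, against 4.04%). Their median was 0.01. Of the 16, *Ntf3* passed the filter on low counts only through the smooth muscle-like profiles, which largely set its direction. *Ntf3*, neurotrophin-3, on which proprioceptive sensory neurons depend in development, was at 57.1 and 53.3 CPM with no UMI in pericyte-like cells (at least 20.4-fold higher), 0.541 and 2.22 CPM in fibroblast-like cells, and 3.00 and 0 CPM in endothelial-like cells. *Inhba*, a subunit of activin, was at 42.5 and 68.5 CPM, also with no UMI in pericyte-like cells (at least 20.2-fold higher). *Pdgfb*, which recruits mural cells, was at 38.9 and 42.5 CPM against 6.18 and 2.19, below the 252 and 215 CPM of endothelial-like cells. The guidance cue *Slit3* was at 640.4 and 683 CPM against 408 and 341. *Cxcl12*, a chemokine, was lower at 117 and 55.3 CPM against 309 and 487, a log2 difference of -2.08. It was -0.48 (adjusted p = 0.631, edgeR) against pericyte-like cells with 0 UMIs of *Myh11*, and -1.53 (adjusted p = 0.0764) with equal numbers of cells. The difference was -3.04 without replicate 1 and -1.30 without replicate 2.

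Matrix, integrin and dystrophin-complex genes went both ways, 14 of 73 higher and 14 lower (19.2% each way, against 4.61% and 4.04% of all genes). Fewer were called each way with 1 sample left out. The median was 0.01, or -0.07 with genes at 0 set at their bound. Of the higher genes, *Sgca* passed the filter on low counts only through the smooth muscle-like profiles, which largely set its direction. *Sgca*, a sarcoglycan of muscle, was at 28.3 and 20.0 CPM with no UMI in pericyte-like cells (at least 8.98-fold higher), and dystrophin, *Dmd*, at 1993 and 2030.3 CPM against 1314 and 844. *Sparcl1*, a secreted matrix-associated protein, was at 1338 and 1244 CPM against 407 and 352. *Eln*, elastin, was at 108 and 111 CPM against 30.9 and 21.9, and lost its call under 6 of 15 alternatives. The collagen *Col8a1* was lower (log2 -1.80 ± 0.31, adjusted p = 0.00325, edgeR). The 10 fibroblast markers summed to 782 and 3065 CPM in pericyte-like cells. Among mural cells with at most 2 UMIs of *Dcn*, a setting chosen after the data were seen, 12 of the 14 lower genes were lower again, and *Mfap5* and *Fbn1* were not.

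Some genes of cyclic nucleotide and G-protein signalling, through which vessels relax or constrict, are given singly, with no count over a list. *Rgs7bp*, which anchors RGS proteins to the membrane, was at 353 and 374 CPM against 71.1 and 61.2, *Pde3a*, a cyclic nucleotide phosphodiesterase, at 1733 and 1844 CPM against 1235 and 1091, and *Mrvi1*, a substrate of the cGMP-dependent kinase, at 378 and 415 CPM against 239.6 and 249, all called higher. Called lower were the phosphodiesterases *Pde8a* at 17.3 and 15.6 CPM against 54.1 and 43.7 and *Pde7b* at 67.3 and 57.7 CPM against 134 and 175, and *Rgs2*, a regulator of Gq signalling, at 15.9 and 15.2 CPM against 29.4 and 56.8, a call lost under 6 of 15 alternatives. The kinase itself, *Prkg1*, was at 3884 and 4051 CPM against 3785 and 3359.7 (log2 0.25 ± 0.11, adjusted p = 0.233, edgeR). The guanylate cyclase subunit *Gucy1a1* was at 775 and 770.2 CPM against 579.6 and 713 (adjusted p = 0.102). Of 26 adhesion and gap junction genes, 3 were higher (11.5%, against 4.61% of all genes) and 6 lower (23.1%, against 4.04%). The median was -0.12, and fewer were called each way with 1 sample left out. N-cadherin, *Cdh2*, was lower at 189 and 133 CPM against 526 and 463, while *Cdh6* was higher at 149 and 159.9 CPM against 46.4 and 28.4. The connexins *Gja4* (346 and 351 CPM against 283 and 238) and *Gjc1* (427 and 448 CPM against 363 and 247) did not pass the test.

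Of 25 oxygen and mitochondrial genes, 6 were called higher (24%, against 4.61% of all genes) and 2 lower (8%, against 4.04%), with a median of 0.46. With 1 sample left out 2 to 4 were higher and 0 lower, and with equal numbers of cells 2 and 0. The median mitochondrial share was also higher in members, at 6.24% and 5.94% against 4.66% and 4.32% in pericyte-like cells, and 47 and 23 members were over 10% against 2 and 5 pericyte-like cells. Among cells at or under 10%, 4 genes of the list were called higher and 0 lower, and over all genes 448 were higher and 382 lower. *Ckb*, creatine kinase, was at 524 and 515 CPM against 201 and 192, while empty droplets held 1666 and 1603 CPM. *Cox8a*, a subunit of cytochrome oxidase, was at 1329.9 and 1381 CPM against 977 and 898. Of 30 genes of dissociation and early response, 2 were higher (6.67%, against 4.61% of all genes) and 5 lower (16.7%, against 4.04%), with a median of -0.25, and the lower calls numbered 0 to 1 with 1 sample left out. *Klf2*, a factor induced by flow and by stress, was at 442 and 533 CPM against 111 and 181. *Fos* was at 4526 and 4011 CPM against 4753 and 4999 (adjusted p = 0.739, edgeR), and *Jund* was lower at 1866 and 1785 CPM against 2816 and 2651. The call of *Jund* was lost under 5 of 15 alternatives, and its log2 difference went from -0.49 to -0.16 (adjusted p = 0.716, edgeR) against pericyte-like cells with 0 UMIs of *Myh11*. The heat shock gene *Hspa1a* was at 1780.0 and 2134 CPM against 3082 and 3622 and did not pass the test (adjusted p = 0.0926), but passed under 5 of 15 alternatives, among them the replicate number as a block (adjusted p = 0.00667) and the 2 mural types alone (0.000907). The part of dissociation in the other comparisons was not tested.

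The 15 genes called higher with the largest fitted fold changes were taken from those at 20 CPM or more in the higher type, with 1 direction in both samples. Of these, 14 had no UMI in either pericyte-like profile, and 1 of the 15 carries no established name. Their order depends on the prior count, so bounds are given. *Asb2*, a ubiquitin ligase subunit that turns over filamins, was at 65.5 and 56.2 CPM (at least 22.5-fold higher than a floor of 3 UMIs). *Scn4b*, a sodium channel subunit, was at 68.6 and 51.3 CPM (at least 22.2-fold), *Timp4*, an inhibitor of matrix proteases, at 52.2 and 50.4 CPM (at least 18.9-fold), and *Susd5* at 43.4 and 50.4 CPM (at least 17.2-fold). *Tcap*, the sarcomeric protein telethonin, was at 24.3 and 29.8 CPM (at least 9.92-fold). *Olfr78*, an olfactory receptor gene known outside the nose from vessels and the carotid body, was at 31.0 and 32.8 CPM (at least 11.7-fold). In empty droplets these 6 genes stood between 0.696 and 12.2 CPM. *Susd5* and *Tcap* were at 0 in fibroblast-like and endothelial-like cells too. All 6 passed the filter on low counts only through the smooth muscle-like profiles, which largely set their direction. They gave a test under 13 of 15 alternatives. In all, 400 genes were called higher than in each of the 3 other types, but 74 of them passed the filter on low counts only through the smooth muscle-like profiles, which largely set their direction.

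Under the same limits, the genes called lower with the largest fold changes included fibroblast genes. *Dcn*, decorin, was at 23.5 and 39.6 CPM in members and at 92.7 and 1689.7 CPM in pericyte-like cells, and *Apod*, apolipoprotein D, at 29.7 and 50.4 CPM against 85.0 and 1469. In replicate 2, 2 of the 65 pericyte-like cells held 756 of their 773 *Dcn* UMIs. Among mural cells with at most 2 UMIs of *Dcn*, a setting chosen after the data were seen, *Dcn* and *Apod* were no longer called, 597 genes were higher and 515 lower, and 463 of the 520 lower genes were lower again. Genes that were lower under that setting as well included *Ptx3*, a secreted pentraxin of innate immunity, at 5.31 and 2.44 CPM against 66.5 and 125 (log2 -4.43 ± 0.51, adjusted p = 0.000184, edgeR). *Sox9*, a transcription factor, was at 1.33 and 3.42 CPM against 17.0 and 56.8. *Lgr5*, a receptor of Wnt signalling, was at 21.7 and 29.8 CPM against 284 and 103. The log2 difference of *Lgr5* was -1.68 without replicate 1. Its call was lost against pericyte-like cells with 0 UMIs of *Myh11* (-0.80, adjusted p = 0.706, edgeR). In empty droplets *Lgr5* was at 135 and 129 CPM, above the members.

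The members were not uniform. Cells with at least 3000 UMIs (242 and 203) were thinned to that depth and ordered by their UMIs of *Acta2*, and split into 4 groups of about equal size. These groups are ranges of 1 gene's count and not types, they are described with no test, and cells of a replicate share their library. In the lowest group *Acta2* was at 43.7 and 294 CPM, no higher than in pericyte-like cells (405 and 302 CPM), and in the highest at 12489 and 12460.0 CPM. *Tagln* was at 409.8 and 712 CPM in the lowest and at 11278 and 10267 CPM in the highest. The upper limit of the lowest group was 1 UMI in replicate 1, where 73 cells lay within 1 UMI of it, and 3 UMIs in replicate 2, where 19 did. The median *Myh11* count was 5 in the lowest group of both replicates and 38 and 36.5 in the highest. Median depths before thinning were 7932 and 8185 UMIs in the lowest and 9361 and 10534 in the highest group.

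**Figure D4:**
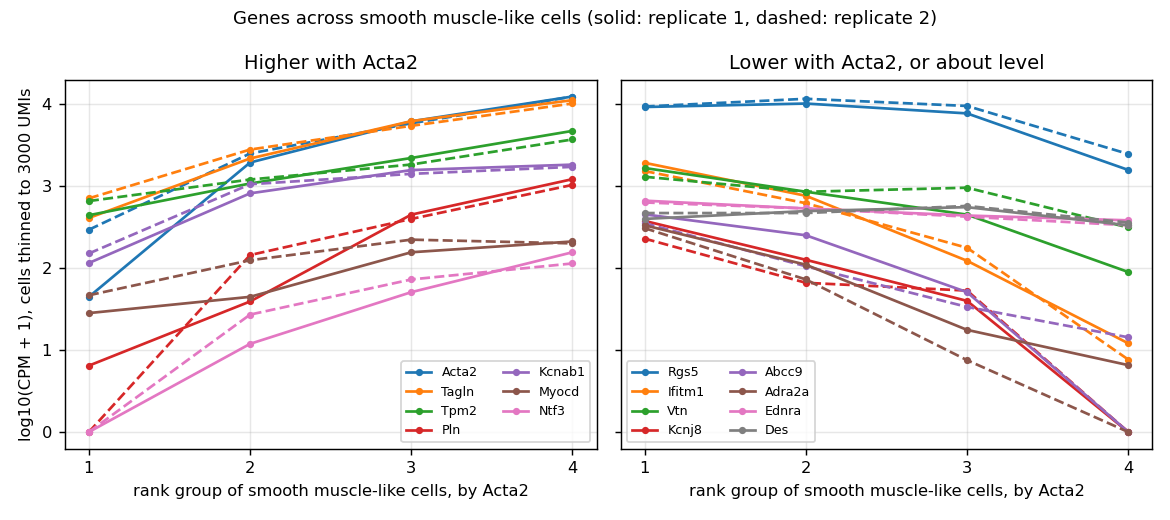
Levels of 15 genes (log10 of CPM + 1) in 4 rank groups of smooth muscle-like cells ordered by *Acta2* after thinning to 3000 UMIs, solid for replicate 1 and dashed for replicate 2. *Tagln*, *Tpm2* and *Pln* are higher in each successive group, *Kcnj8* is at 0 in the highest group of both replicates, and *Des* and *Ednra* vary less.

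*Pln* had the same order, at 5.46 and 0 CPM in the lowest group and 1222 and 1040.0 CPM in the highest, where 55 of 60 and 41 of 50 cells held it. *Cnn1* was at 0 in the lower 2 groups of both replicates and at 133 and 153 CPM in the highest. *Ntf3* was at 0 in the lowest group of both replicates and at 156 and 113 CPM in the highest, and *Eln* at 0 and 13.1 against 278 and 260.0 CPM. *Olfr78* was highest in the third group, at 77.8 and 58.8 CPM, and *Htr1b* in the second, at 54.6 and 118 CPM, with 16.7 and 13.3 CPM in the highest group. These sparse genes were found in at most 22 cells of any group.

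Pericyte genes ran the other way. *Kcnj8* was at 377 and 229 CPM in the lowest group and 0 in the highest of both replicates, and *Ifitm1* at 1934 and 1536 CPM against 11.1 and 6.67 CPM. *Adra2a* was at 333 and 307 CPM in the lowest group and 5.56 and 0 CPM in the highest. *Rgs5*, which chose the cells, stayed between 7767 and 11712 CPM in the lower 3 groups and was at 1583 and 2480.0 CPM in the highest. *Ednra* was at 667 and 634 CPM in the lowest group and 383 and 333 CPM in the highest, and *Des* stayed between 333 and 575 CPM. The fibroblast gene *Dcn* stayed between 16.4 and 65.4 CPM, and the glial gene *Apoe* was at 1754 and 1987 CPM in the lowest, 2656 and 2222 CPM in the second and 806 and 1087 CPM in the highest group. The part of glial RNA in this order was not tested. Over cells, Spearman's correlation between *Acta2* and *Tagln* was 0.90 and 0.87 (n = 242 and 203 cells). Between *Acta2* and *Kcnj8* it was -0.49 and -0.43, and between *Acta2* and *Des* -0.06 and -0.14. With *Myh11*, which chose the cells, it was 0.70 and 0.68 for *Acta2* and 0.67 and 0.65 for *Tagln*.

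Against fibroblast-like cells, 2374 of 12872 genes were higher in smooth muscle-like cells (18.4%) and 2782 lower (21.6%), and against endothelial-like cells 3198 were higher (24.8%) and 3206 lower (24.9%). The contractile list was higher in 30 of 32 genes in each of these comparisons, with medians of 2.98 and 3.08, and lower in 1 and 0. Of 26 pericyte markers, 21 were higher and 3 lower than in fibroblast-like cells, and all 26 were higher than in endothelial-like cells. Channels and pumps were higher in 36 and 38 of 52 and lower in 8 and 9. Of 73 matrix genes, 45 were lower and 22 higher than in fibroblast-like cells, and 45 were higher and 12 lower than in endothelial-like cells. These comparisons share the same 2 smooth muscle-like profiles.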

How the data were processed

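Cells were sorted live from dissociated DRGs and made into 10x 3' libraries. The authors counted UMIs with Cell Ranger (7.1.0 in the study's methods, on mm10 in the submitters' processing notes) and deposited raw counts per gene for 1762921 and 1832899 barcodes, empty droplets included. Library totals were 119101743 and 128668771 UMIs. Counts were summed per sample and type and tested with edgeR 4.0.16 in R 4.3.3 (TMM, glmQLFit, glmQLFTest, at least 10 counts in 2 profiles), with Benjamini-Hochberg adjustment over 12872 genes. The 9 genes of the gates were not tested. The sample, not the cell, was the replicate. CPM use the total UMIs of a profile and are not scaled by TMM.

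Doublets were treated only through the rule's excluded genes, and 3 and 1 members lay more than 5 median absolute deviations above the median UMIs. Intervals and floors cover counting error only. Named genes were the marker, gate and endothelin genes, the 4 members of each list with the highest CPM, up to 3 called members each way at 20 CPM or more, and the 15 called genes each way with the largest fold change, the same direction in both samples and 20 CPM or more in the higher type. Other names were chosen after their values were seen. The members and lists were chosen with earlier results of these data known. Profiles of one sample come from one dissociation, which pairs them, and correlations of their deviations were 0.0109 to 0.0545. The 2 samples of each type differed beyond counting error. Gene positions were read from GENCODE M21 (GRCm38), where 32158 of 32285 identifiers matched, and promoter sequences from RefSeq. Some genes and 1 gene list are not reported here.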

Additional observations from a re-analysis of the deposited data

How the results depend on the processing

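The test has 2 samples and pericyte-like profiles of 646955 and 457479 UMIs, where 3 UMIs over both equal 2.72 CPM, so genes near that level cannot be separated at this depth. Against pericyte-like cells, limiting those cells to 0 UMIs of *Myh11* gave 385 higher and 205 lower genes, equal numbers of cells 316 and 181, no filter on low counts 797 and 810, and DESeq2 443 and 438. Library totals in place of TMM moved the median of all genes from 0.01 to -0.07 and the split to 490 higher and 726 lower (40.3% higher in place of 53.3%). The replicate block gave 573 and 541 and changed no call of a named gene but those of *Esam* (lost, adjusted p = 0.0506) and *Hspa1a*. *Esam* lost its call under 9 of 15 alternatives. Equal numbers of cells gave 1766 genes lower than in fibroblast-like and 2093 lower than in endothelial-like cells. Leaving out a sample gave 194 to 233 higher and 116 to 262 lower genes against pericyte-like cells, 1421 to 1466 and 1537 to 1693 against fibroblast-like cells, and 1937 to 1964 and 1696 to 1806 against endothelial-like cells. Fits with a sample left out held 1 profile of each type compared, and their spread came from the other types alone. The number of members ranged from 340 (*Myh11* at least 6 UMIs) to 506 (at least 2). Of 106 named genes called against pericyte-like cells, 38 kept the call under every alternative that could be run and 49 when leaving out a sample is set aside. Some of the 38 had fewer than 15 alternatives, among them *Pln*, *Ryr2*, *Ntf3* and *Cnn1* with 13. These had no test with a sample left out, so they could not lose the call there. *Igfbp6* changed sign without replicate 2, from -5.78 to 1.27 (-6.61 without replicate 1). Contractile genes called higher numbered 20 to 25 of 32 over the alternatives, and 14 and 15 with 1 sample left out. With 1 sample left out, higher calls numbered 0 to 1 of 47 vasoactive receptors (6 with both), 8 to 11 of 52 channels (18), 1 to 3 of 30 transcription factors (6), 6 to 11 of 78 growth factors (16) and 2 to 3 of 73 matrix genes (14). Lower calls then numbered 5 to 6 of 26 pericyte markers (11), 0 to 1 transcription factors (4) and 3 to 7 matrix genes (14). Among genes whose lost calls are not given in the report, *Dmd*, *Dtx4*, *Pde3a*, *Pde8a* and *Slit3* lost the call under 3 of 15 alternatives, *Heyl*, *Inhba*, *Mrvi1*, *Nrarp* and *Vtn* under 2, and *Cdh6*, *Col8a1*, *Cox8a*, *Mef2c* and *Pde7b* under 1. *Mylk*, *Lmod1*, *Casq2* and *Slc8a1* kept it under all 15, and *Kcna5* and *Kcnmb1* under the 13 that gave a test. *Actg2* lost it under 5 and *Sgca* under 1 of 13. The causes were not tested.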
